A study of Rattus norvegicus with 32 samples.

Results

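The muscle of 8 obese Zucker rats fed safflower oil was compared with that of 8 lean Zucker rats fed the control diet, which together are 16 of the 32 rats in the study. The members were taken by their titles alone, as all rats labelled Obese-LA and all labelled lean control, and no measured value entered that choice. RNA came from the red portion of the tibialis anterior, a shin muscle, of male rats aged 18 weeks, and each rat gave 1 array. Lean controls ate AIN-93G, a purified rodent diet, without restriction. The LA rats were of the obese genotype and ate AIN-93G with 10% safflower oil, which is rich in linoleic acid (LA), and their intake was held to the calories that obese controls ate. Feeding lasted 12 weeks. The remaining groups were 8 obese controls, which ate AIN-93G without restriction, and 8 obese rats pair-fed AIN-93G with 10% flaxseed oil (ALA). Genotype, oil and the way of feeding all differ between LA rats and lean controls, so that in this comparison their parts cannot be told apart. Obese controls share the genotype of the LA rats and the diet of the lean rats, and their values are given for many of the genes below and in the last paragraph.

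Obese Zucker rats carry an inherited fault of the leptin receptor, eat in excess and become fat and insulin resistant. In muscle, fatty acids released from lipoproteins at the capillary wall, or brought by the blood, are bound, linked to coenzyme A, carried into mitochondria by carnitine and shortened step by step in beta-oxidation. Peroxisome proliferator-activated receptors (PPARs) are nuclear receptors that fatty acids activate, and their target genes serve this route. Linoleic acid is unsaturated, and its breakdown needs isomerase and reductase steps beside the common ones.

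Values are log2 intensities, and a difference of 1 unit is a 2-fold change. For each gene 1 array feature was used. Precision is limited by having 8 rats in a group, and over all genes the standard error of the difference had a median of 0.0875. The tissue label was checked against its markers. The mean of 6 skeletal muscle genes (Ckm, Acta1, Myh4, Tnnt3, Mb and Des) lay between 12.26 and 12.35 in LA rats and between 12.28 and 12.36 in lean controls, on a scale whose highest value in the table was 13.08. LA rats 7 and 8 were unlike the rest of their group. In them the mean over 8 tendon markers was 7.93 and 6.28, against 4.14 to 5.36 in the other LA rats and 4.01 to 5.32 in lean controls. Tnmd, the tendon gene tenomodulin, was at 7.40 and 4.87 in them and at 3.06 to 4.08 in the other LA rats, where it lay close to the limit of 3.35 below which genes were left out. Their fibroblast marker means were 7.39 and 6.84, against 6.30 to 6.63 in lean controls. For many of the lists described and of the genes named, values are therefore also given without these 2 rats. Lean control 2 had a mean of 7.72 over genes of myogenesis and denervation, against 6.02 to 6.23 in the other lean controls.

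Limma called 177 of 10918 tested genes at an adjusted p below 0.05 (1.62%), 75 of them higher (0.687%) and 102 lower (0.934%) in LA rats. In the values as deposited 42.4% of the called genes were higher. The share was 52.6% when the arrays were quantile-normalised again and 37.2% when each was centred on its own median, so it depended on the scaling. The median difference of all tested genes was -0.004 and 48.5% of them were higher. Counts of list members below are to be read beside these shares, and some genes belong to several lists. Of the called genes 19 differed by at least 1 log2 unit, and the median size was 0.51. The 2 groups did not overlap for 41 genes (0.376% of those tested), with LA rats above in 0.192% and below in 0.183% of the tested genes, and 35 of the 41 were called. Without LA rats 7 and 8, limma called 156 genes (1.43%), 54 higher and 102 lower, and 105 of these were among the 177. The count was 110 without lean control 6, with 58 lower genes, and 66 genes were lower without lean control 8. P values set each difference against the spread between rats within groups, each rat sampled once. That spread was pooled over all 4 groups. A fit of the 2 compared groups alone called 183 genes, and 134 of these were among the 177.

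**Figure D1:**
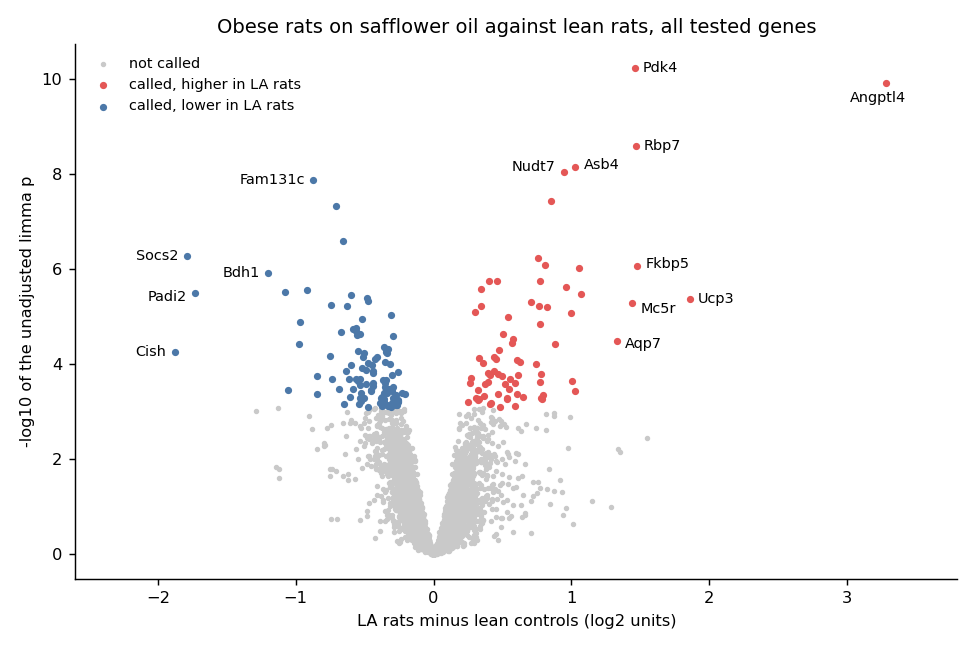
Each point is 1 of the 10918 tested genes; the horizontal axis is the mean of LA rats minus that of lean controls in log2 units, and the vertical axis is -log10 of the unadjusted limma p. Coloured points are the 75 higher (red) and 102 lower (blue) called genes. Angptl4 lies farthest to the right at 3.28, and Cish farthest to the left at -1.88.

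Genes that control lipoprotein lipase and fatty acid entry were higher in LA rats. Angptl4 (feature 17834433) encodes a secreted protein that inhibits lipoprotein lipase. Its level ran from 6.66 to 8.67 with a median of 7.34 in LA rats, from 3.62 to 4.78 with a median of 4.12 in lean controls, and from 5.88 to 7.66 in obese controls. Every LA rat lay above every lean rat, and LA rat 7 was the highest. The mean rose 9.72-fold, from 4.15 ± 0.41 to 7.43 ± 0.61 (SD, n = 8 each), a log2 difference of 3.28 with a 95% interval of 2.55 to 4.01 (limma, adjusted p = 6.63e-07), and the difference was 3.06 without LA rats 7 and 8. Gpihbp1, which anchors lipoprotein lipase in the capillary, ran from 6.54 to 7.28 in LA and from 5.77 to 6.56 in lean rats, with a log2 difference of 0.81 (limma, adjusted p = 0.000717). For Fabp4, a fatty acid-binding protein of capillary endothelium, adipocytes and macrophages, the groups met at 7.82 without overlap, with LA rats up to 8.91 and lean controls down to 7.23, and the difference was 0.71 (limma, adjusted p = 0.00186). Without LA rats 7 and 8 the log2 differences of Gpihbp1 and Fabp4 were 0.75 and 0.64, both called. Cd36, the fatty acid translocase, had a log2 difference of 0.36 that missed the threshold (limma, adjusted p = 0.0504). It was called without LA rat 1 (adjusted p = 0.0496) or LA rat 5 (adjusted p = 0.00918). Leaving out other single arrays gave no call (adjusted p up to 0.104). Without LA rats 7 and 8 together the Cd36 difference was 0.35 and not called (limma, adjusted p = 0.0955).

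Slc27a1, a fatty acid transport protein, rose with a log2 difference of 0.78 (limma, adjusted p = 0.0372). Its call was lost without any 1 of lean controls 1, 2, 5, 6, 7 and 8 and LA rats 2, 4, 6, 7 and 8 (adjusted p from 0.0531 to 0.0886), without LA rats 7 and 8 together (0.73, adjusted p = 0.0962), with centred arrays (0.0521) and with a robust prior (0.0509). Vldlr, a receptor for triglyceride-rich lipoproteins, was the only called member of the uptake list that fell, by 0.38 log2 units (limma, adjusted p = 0.0372), a call lost without lean controls 1, 3, 4, 5, 6 or 8 or LA rats 6, 7 or 8 (adjusted p from 0.053 to 0.078) after the second quantile normalisation (adjusted p = 0.055) and without LA rats 7 and 8 together (-0.26, adjusted p = 0.158). Lpl itself, the lipase, differed by -0.08 and was not called. In all, 8 of the 11 tested uptake genes were higher, 4 were called higher and 1 lower, and the list median was 0.36 (0.35 without LA rats 7 and 8) against -0.004 for all genes. Of all tested genes 48.5% were higher, 0.687% were called higher and 0.934% were called lower. The number called was 3 without lean control 1, 5, 6 or 8 or LA rat 6, 7 or 8, and 3 without LA rats 7 and 8 together.

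The list of PPAR targets was higher in all 16 of its tested members, with a median of 0.40, and 6 were called higher. These were Angptl4, Ucp3, Pdk4, Cpt1a, Plin5 and Acot2, and 5 were called without LA rats 7 and 8. Among all tested genes 48.5% were higher and 0.687% were called higher. Angptl4 also counts in the uptake list, Cpt1a in the beta-oxidation list and Pdk4 in the pyruvate dehydrogenase list. Pdk4 (feature 17789572) encodes a kinase that switches off pyruvate dehydrogenase and so restrains the oxidation of glucose. It ran from 11.42 to 11.88 with a median of 11.71 in LA rats and from 9.59 to 10.87 with a median of 10.28 in lean controls. The LA rats lay close together and above all lean rats, whose spread was wider (SD 0.15 against 0.45, n = 8 each). Pdk4 rose 2.75-fold, with a log2 difference of 1.46 and an interval of 1.15 to 1.77 (limma, adjusted p = 6.42e-07), and the difference was 1.41 without LA rats 7 and 8. In obese controls it ran from 11.39 to 11.72. The other 6 tested genes of the pyruvate dehydrogenase complex and its control were all lower by 0.01 to 0.21 log2 units and none was called, among them Pdk1 at -0.20 and Dlat at -0.21. Acot2, a thioesterase that frees fatty acids from coenzyme A in mitochondria, rose by 0.77 (limma, adjusted p = 0.00108). Plin5, a lipid droplet coat protein of oxidative tissue, had a median of 8.16 in LA and 7.11 in lean rats and rose by 0.80 (limma, adjusted p = 0.0348). The Plin5 call was lost without any 1 of lean controls 1, 2, 3, 6 and 7 and LA rats 1, 2, 4, 6 and 7 (adjusted p from 0.0531 to 0.0726), and without LA rats 7 and 8 together (0.77, adjusted p = 0.0782).

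Ucp3 (feature 17618739) encodes the uncoupling protein of muscle mitochondria, a carrier whose expression follows the supply of fatty acids. It ran from 8.71 to 10.81 with a median of 9.85 in LA rats and from 6.54 to 9.41 with a median of 8.06 in lean controls. Of the LA rats 7 lay above the highest lean rat, and LA rat 3 did not. Ucp3 rose 3.62-fold, a log2 difference of 1.86 with an interval of 1.17 to 2.54 (limma, adjusted p = 0.00168), and 1.73 without LA rats 7 and 8. Obese controls had a median of 9.50 and reached 10.33. Its promoter is shown because nuclear receptors of the PPAR group bind repeats of AGGTCA. The window runs from 250 bases before to 50 bases after the gene's start (RefSeq, GRCr8, chr1:164227660-164227959, plus strand), and capitals mark AGGTCA, searched on both strands.
Ucp3: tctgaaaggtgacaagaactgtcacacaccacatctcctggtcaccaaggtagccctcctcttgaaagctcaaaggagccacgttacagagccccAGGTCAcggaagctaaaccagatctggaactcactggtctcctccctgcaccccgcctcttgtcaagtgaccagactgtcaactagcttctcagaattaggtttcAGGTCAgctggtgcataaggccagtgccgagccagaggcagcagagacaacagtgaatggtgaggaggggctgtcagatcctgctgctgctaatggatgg
The 2 matches begin 155 and 50 bases before the start. At least 1 match was found in 16.2% and at least 2 in 1.81% of 33469 promoter windows of this length. Among the 58 named genes with a window 12 held a match, and the windows of Angptl4, Pdk4, Cpt1a and Acot2 held none. The form that PPARs bind, 2 copies of AGGNCA with 1 base between them, was in none of the 58, that of Ucp3 included, and in 0.415% of the 33469 windows. A match of letters shows no binding.

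**Figure D2:**
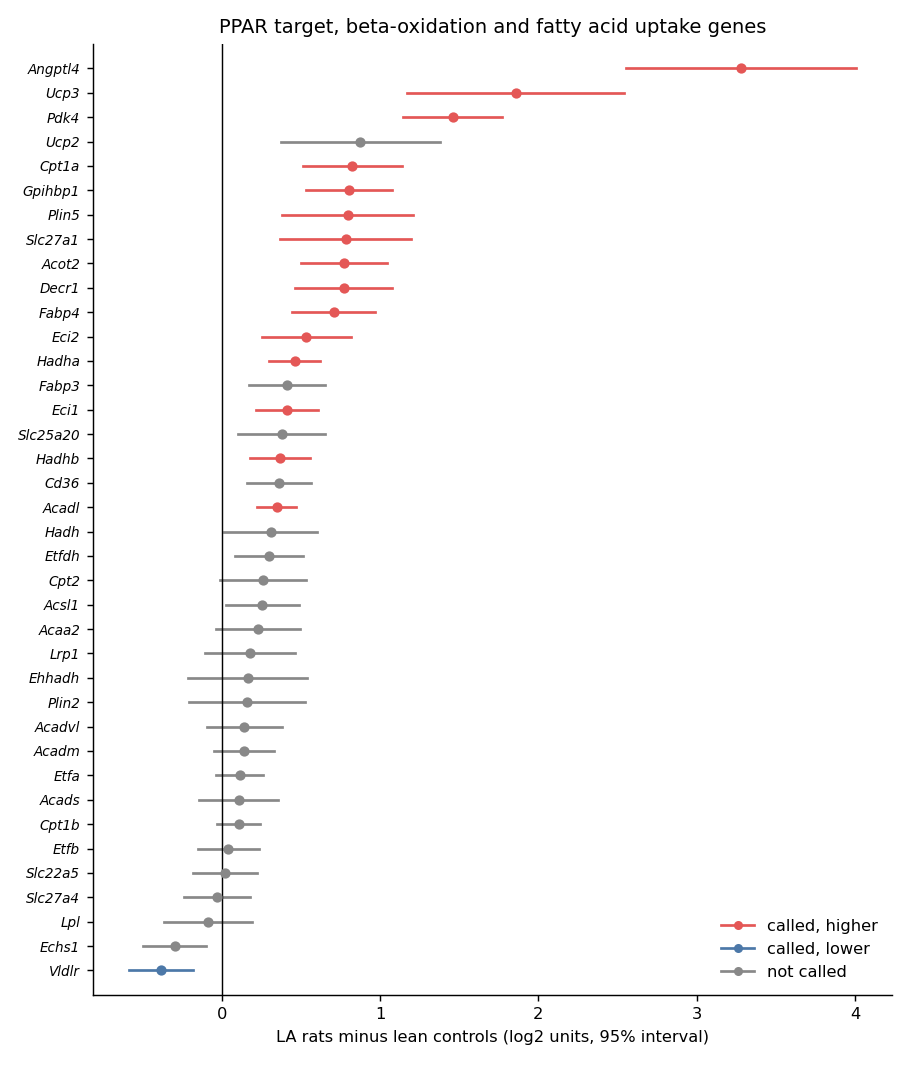
Each row is 1 tested gene of the PPAR target, beta-oxidation or fatty acid uptake lists. The point is the log2 difference of LA rats minus lean controls and the bar its 95% interval from limma; red marks called higher, blue called lower and grey not called. Angptl4 lies apart at 3.28, most beta-oxidation enzymes lie between 0 and 0.82, and Vldlr (-0.38) is the only called gene below 0.

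Enzymes of mitochondrial beta-oxidation were higher in 19 of 20 tested genes, with a median of 0.28, and 7 were called, all higher. The shares over all tested genes were 48.5% higher and 0.687% called higher. Cpt1a, which links fatty acids to carnitine at the mitochondrial surface, ran from 5.69 to 6.63 in LA and from 4.75 to 5.60 in lean rats. The groups did not overlap, and Cpt1a rose 1.77-fold (log2 difference 0.82, interval 0.51 to 1.14, limma, adjusted p = 0.0019). Obese controls ran from 5.77 to 6.82. The muscle isoform Cpt1b differed by 0.11 and was not called. Decr1, the reductase that removes double bonds of unsaturated chains, ran from 6.87 to 7.81 in LA and from 6.34 to 6.78 in lean rats, again without overlap, and rose by 0.77 (limma, adjusted p = 0.00372). Both isomerases that shift such double bonds also rose, Eci2 by 0.54 (limma, adjusted p = 0.0377) and Eci1 by 0.41 (limma, adjusted p = 0.02). From obese controls, which ate no safflower oil, LA rats differed by 0.10 for Decr1 (interval -0.21 to 0.41). That difference was 0.28 for Eci2 (-0.005 to 0.56) and 0.16 for Eci1 (-0.03 to 0.36), and all 3 intervals hold 0. Obese controls 4 and 7 were unlike their group, as described below. Without them the differences were 0.07 for Decr1 (-0.27 to 0.41), 0.09 for Eci2 (-0.15 to 0.33) and 0.10 for Eci1 (-0.11 to 0.30). Acadl, a long-chain dehydrogenase, rose by 0.35 against lean controls (limma, adjusted p = 0.00139). Echs1, a hydratase of the same cycle, was the 1 tested member that was lower, at -0.30, and was not called. The Eci2 call was lost without lean controls 1, 3, 4, 5, 6, 7 or 8 or LA rats 1, 2, 4, 6 or 7 (adjusted p from 0.052 to 0.0764), with centred arrays (0.0541) and without LA rats 7 and 8 together (0.55, adjusted p = 0.0611). Without LA rats 7 and 8, 5 members were called and the median was 0.29. LA rat 5 had the lowest list mean of its group, at 9.20 against 9.53 to 9.76 in the other LA rats and 9.16 to 9.39 in lean controls.

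Hadha and Hadhb encode the alpha and beta chains of the trifunctional protein, which carries out the last steps of the cycle for long chains. Hadha ran from 10.46 to 10.98 in LA and from 10.21 to 10.57 in lean rats and rose by 0.46 (limma, adjusted p = 0.00108). Hadhb ran from 10.48 to 11.13 and from 10.24 to 10.68 and rose by 0.37 (limma, adjusted p = 0.0358), a call lost without lean controls 1, 2, 3, 4, 5 or 7 or LA rats 2, 3, 4, 6 or 7 (adjusted p from 0.0502 to 0.0794), with LA rats 7 and 8 both left out (0.0868) and with centred arrays (0.0821). In each gene 7 of 8 LA rats lay above the highest lean rat. The promoter of Hadha is shown because both genes start head to head, and their windows share 200 bases (RefSeq, GRCr8, chr6:31907551-31907850, plus strand). Capitals mark the bases that also lie in the Hadhb window.
Hadha: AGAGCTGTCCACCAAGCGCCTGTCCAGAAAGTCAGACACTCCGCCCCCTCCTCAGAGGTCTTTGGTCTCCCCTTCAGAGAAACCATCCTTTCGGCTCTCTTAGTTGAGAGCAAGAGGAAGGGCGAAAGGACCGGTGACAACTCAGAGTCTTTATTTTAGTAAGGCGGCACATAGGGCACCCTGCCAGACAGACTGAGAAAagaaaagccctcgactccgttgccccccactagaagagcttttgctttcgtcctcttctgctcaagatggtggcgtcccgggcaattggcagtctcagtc

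Some further genes of fatty acid and coenzyme A handling were among the called genes. Nudt7, a peroxisomal hydrolase of coenzyme A, ran from 7.22 to 8.04 in LA and from 6.55 to 7.07 in lean rats, without overlap. It rose 1.92-fold (log2 difference 0.94, limma, adjusted p = 1.91e-05), and obese controls ran from 7.18 to 7.81. Aqp7, a channel for glycerol and water, was at 8.31 to 8.87 in 7 LA rats and 7.31 in LA rat 5, against 6.42 to 7.64 in lean controls, and rose 2.51-fold (limma, adjusted p = 0.00664). The genes Acad11, Ech1 and Hsdl2 were picked after their values were seen. Acad11, an acyl-CoA dehydrogenase, rose by 0.85 (limma, adjusted p = 5.64e-05), Ech1, an isomerase of dienoyl-CoA, by 0.54 (limma, adjusted p = 0.00275) and Hsdl2, a peroxisomal dehydrogenase-like protein, by 0.40 (limma, adjusted p = 0.0192). Hsdl2 was not called with LA rats 7 and 8 and lean control 2 left out (0.38, adjusted p = 0.0756). Of 11 lipid droplet genes all were higher, with a median of 0.32 (0.20 without LA rats 7 and 8), but Plin5 was the only one called. Of all tested genes 48.5% were higher and 0.687% were called higher. Cidea, a droplet protein of adipocytes, had a difference of 0.99 (adjusted p = 0.0626) and Dgat1, the last enzyme of triglyceride synthesis, of 0.27 (adjusted p = 0.0655). No member of this list was called without lean controls 1, 6 or 7 or LA rats 1, 2, 4, 6 or 7, and 2 were called without LA rat 3 and 4 without LA rat 5. Adipocyte markers moved with these genes in part. The mean of 10 such markers was 6.52 in LA rat 7, 5.83 in LA rat 6, 5.77 in LA rat 8 and 5.21 to 5.61 in the others, against 5.31 to 5.46 in lean controls, and the list median was 0.30 with and 0.15 without LA rats 7 and 8. Fabp4 was the 1 adipocyte marker called with all rats. Cidea was called higher as well without lean control 2 or LA rat 5. Car3, a carbonic anhydrase of slow fibres and adipocytes, was instead called lower without LA rat 7 or 8. Angptl4, Pdk4, Ucp3, Cpt1a, Decr1, Hadha, Aqp7 and Nudt7 were called with and without LA rats 7 and 8. Without these 2 rats 9 of the 10 adipocyte markers were still higher. Fabp4 was called higher there (0.64, limma, adjusted p = 0.00682), and Car3 was called lower (-1.27, limma, adjusted p = 0.00224). The part of fat tissue in these values was not tested.

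Genes for the use of ketone bodies and branched-chain amino acids were lower. Bdh1 (feature 17669921), the dehydrogenase that begins ketone use, ran from 4.02 to 5.43 with a median of 4.25 in LA rats and from 4.91 to 6.11 with a median of 5.72 in lean controls. Of the LA rats 6 lay below the lowest lean rat, while LA rats 6 and 8 overlapped the lean range. Bdh1 fell 2.3-fold, with a log2 difference of -1.20 (interval -1.61 to -0.79, limma, adjusted p = 0.00089), and the difference was -1.33 without LA rats 7 and 8. Oxct1, which activates the ketone acetoacetate in the next step, was lower in every LA rat than in any lean rat, at 10.30 to 11.12 against 11.21 to 11.51, and fell by 0.51 (limma, adjusted p = 0.0113). All 6 tested genes of this list were lower, with a median of -0.40, and these 2 were called, against 0.934% of all tested genes called lower. Without LA rats 7 and 8 the median was -0.36, 3 were called lower, and 1 member was higher. Ldhb, a subunit of lactate dehydrogenase typical of heart and red muscle, had a difference of -0.79 (adjusted p = 0.134). It was called without LA rat 8 (adjusted p = 0.0491) and without LA rats 7 and 8 (-1.05, adjusted p = 0.0343). The medians of Bdh1 and Oxct1 in obese controls were 4.20 and 10.90.

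Of 16 genes that break down branched-chain amino acids, 15 were lower, with a median of -0.20, and 3 were called. Over all tested genes 0.934% were called lower. Aldh6a1, the dehydrogenase of the valine route, ran from 9.23 to 9.70 in LA and from 9.64 to 9.91 in lean rats and fell by 0.33 (limma, adjusted p = 0.00904). Bcat2, the transaminase of the first step, had a difference of -0.48 (limma, adjusted p = 0.0484). Its call was lost without lean controls 1, 3, 4, 5, 6 or 8 or LA rats 4, 5, 6, 7 or 8 (adjusted p from 0.0502 to 0.114), with centred arrays (0.0541) with no filter on dim genes (0.0598) and without LA rats 7 and 8 together (-0.40, adjusted p = 0.152). Ivd, the isovaleryl-CoA dehydrogenase of the leucine route, had a difference of -0.33 (limma, adjusted p = 0.0296) and lost its call without lean controls 3, 4, 5, 6 or 8 or LA rats 4, 5 or 7 (0.0532 to 0.0772), without LA rats 7 and 8 together (0.0602) and in a fit of these 2 groups alone (0.104). Aldh6a1 was then the 1 called member without any 1 of lean controls 3, 4, 5, 6 and 8 and LA rats 4, 5 and 7, and without LA rats 7 and 8 together.

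The deepest falls were in Cish and Socs2, which check growth hormone and cytokine receptors. Growth hormone acts through the kinase Jak2 and the transcription factors Stat5a and Stat5b, which induce Cish and Socs2, and whose protein products then dampen the receptor. Cish (feature 17847383) ran from 4.75 to 7.43 with a median of 5.25 in LA rats and from 6.08 to 8.51 with a median of 7.33 in lean controls. All LA rats but number 5 lay below the lowest lean rat. Cish fell 3.67-fold, from 7.35 ± 0.94 to 5.47 ± 0.83 (SD, n = 8 each), a log2 difference of -1.88 with an interval of -2.70 to -1.05 (limma, adjusted p = 0.00978), and -1.73 without LA rats 7 and 8 (adjusted p = 0.0394). Socs2 (feature 17835345) ran from 3.83 to 5.86 with a median of 4.44 in LA rats and from 5.32 to 7.01 with a median of 6.30 in lean controls, and here LA rat 3 was the one that overlapped. Socs2 fell 3.45-fold (log2 difference -1.79, interval -2.37 to -1.20, limma, adjusted p = 0.000567), and the difference was -1.77 without LA rats 7 and 8. The other 5 tested genes of the list, Socs1, Jak2, Stat5a, Stat5b and Bcl6, differed by -0.22 to 0.30 and were not called, and the list median was -0.02. In obese controls Cish was at 4.96 to 6.06 and Socs2 at 3.69 to 4.79. The promoter of Cish is shown for its STAT letters, TTCNNNGAA, searched on both strands and marked in capitals (RefSeq, GRCr8, chr8:116850719-116851018, plus strand, from 250 bases before to 50 after the start).
Cish: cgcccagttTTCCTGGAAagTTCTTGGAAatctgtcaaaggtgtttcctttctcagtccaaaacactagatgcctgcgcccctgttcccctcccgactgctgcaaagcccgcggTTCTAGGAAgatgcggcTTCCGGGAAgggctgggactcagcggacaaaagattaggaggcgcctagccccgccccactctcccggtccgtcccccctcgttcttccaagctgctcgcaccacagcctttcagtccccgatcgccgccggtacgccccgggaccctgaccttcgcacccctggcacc
The 4 matches begin 241, 230, 136 and 119 bases before the start. At least 1 match was found in 8.87% of the 33469 windows and 4 or more in 2 windows (0.00598%), of which Cish is 1.

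**Figure D3:**
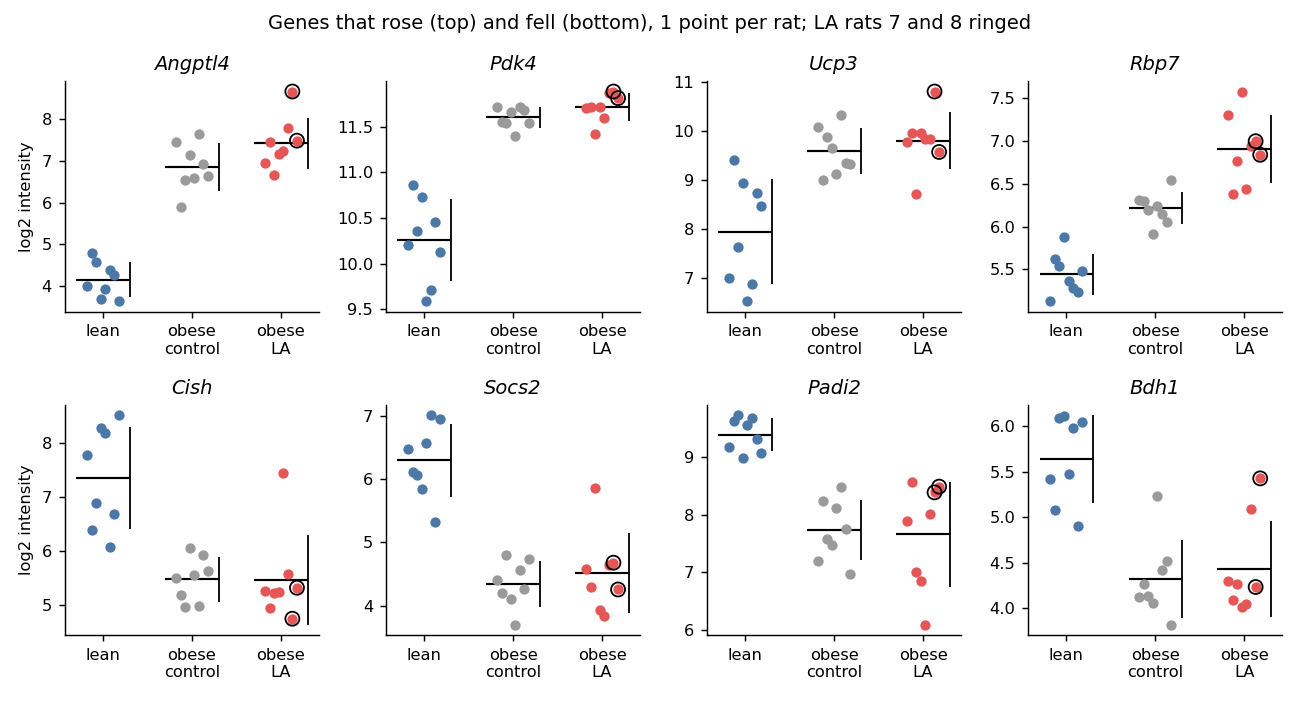
Each point is 1 rat and each panel 1 gene, with its own log2 intensity axis; lines are group means and bars the SD (n = 8 rats per group), and LA rats 7 and 8 are ringed. In the upper row LA rats lie above lean controls, with no overlap for Angptl4, Pdk4 and Rbp7, and in the lower row they lie below, with LA rat 5 in the lean range for Cish at 7.43. Obese controls lie near the LA rats in most panels.

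Genes that glucocorticoids or reduced insulin signalling raise were higher in part. Fkbp5 (feature 17757188), a co-chaperone of the glucocorticoid receptor, ran from 6.72 to 9.35 with a median of 7.86 in LA rats and from 5.75 to 6.95 with a median of 6.29 in lean controls. LA rat 7 was the highest, and LA rat 3 alone lay within the lean range. Fkbp5 rose 2.78-fold, with a log2 difference of 1.47 (interval 0.98 to 1.97, limma, adjusted p = 0.000717) and 1.18 without LA rats 7 and 8. Obese controls ran from 6.45 to 8.17. Foxo1, a transcription factor that insulin restrains, rose by 0.78 (limma, adjusted p = 0.0193), with LA rat 7 at 9.45 and the others at 7.19 to 8.18. The Foxo1 difference was 0.51 without LA rats 7 and 8 (adjusted p = 0.0435), and it was not called in a fit of these 2 groups alone (adjusted p = 0.0828). Zbtb16, a zinc finger factor that glucocorticoids induce, had a difference of 0.53 (limma, adjusted p = 0.0372). The Zbtb16 call was lost without lean controls 1, 3, 5, 6 or 8 or LA rats 2, 5, 6, 7 or 8 (adjusted p from 0.0529 to 0.096), without LA rats 7 and 8 together (0.34, adjusted p = 0.161) and in a fit of these 2 groups alone (0.142). These were the 3 called of 16 tested glucocorticoid and atrophy genes, whose median was 0.12 with all rats and 0.01 without LA rats 7 and 8. Of all tested genes 0.687% were called higher. The ubiquitin ligases Fbxo32 and Trim63 were at -0.02 and 0.28 and were not called. In the insulin signalling list Foxo1 was the 1 called member of 18, and Irs1, the insulin receptor substrate, had a difference of -0.77 (adjusted p = 0.0851). Txnip, a thioredoxin-binding protein that limits glucose uptake, was at 11.06 to 11.45 in LA and 10.62 to 10.90 in lean rats, without overlap, and rose by 0.45 (limma, adjusted p = 0.012).

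The other large rises were in genes of varied function. Rbp7 (feature 17812802), a cellular retinol-binding protein, ran from 6.38 to 7.58 with a median of 6.89 in LA rats and from 5.13 to 5.87 with a median of 5.42 in lean controls. It rose 2.76-fold without overlap (log2 difference 1.47, interval 1.10 to 1.84, limma, adjusted p = 9.36e-06), and the difference was 1.46 without LA rats 7 and 8. Its difference from obese controls, which ran from 5.92 to 6.54, was 0.69 with an interval of 0.32 to 1.06 that did not pass the test over all genes (limma, adjusted p = 0.325). Cd300lg, a glycoprotein of capillary endothelium, ran from 4.68 to 5.46 in LA and from 3.59 to 4.50 in lean rats and rose by 1.00 (limma, adjusted p = 0.00242). Slc40a1, the iron exporter ferroportin, rose by 0.96 (limma, adjusted p = 0.00133), and Asb4, a substrate adaptor of ubiquitin ligases, by 1.03 (limma, adjusted p = 1.91e-05), both without overlap of the groups. Mc5r, a melanocortin receptor, ranged widely in LA rats, from 4.74 in rat 1 to 7.30 in rat 5, against 4.47 to 4.98 in lean controls, and rose 2.71-fold (limma, adjusted p = 0.0019). Tpd52l1, of the tumour protein D52 family, rose by 1.07 and Oas1k, of the oligoadenylate synthetases that interferons induce, by 1.05 (limma, adjusted p = 0.00151 and 0.000747). Oas1k was the 1 called gene of 8 tested interferon-induced genes, against 0.687% of all tested genes called higher. The list median was -0.09, and Ifit2 of the same list was at -0.48 (adjusted p = 0.0851). Without lean control 7 Ifit2 was called as well (adjusted p = 0.0493). Cyria, an inhibitor of Rac1 signalling, had a difference of 1.02 (limma, adjusted p = 0.0311). LA rats 5, 7 and 8 were at 6.95, 8.36 and 7.24 and the others at 5.49 to 6.20. The Cyria call was lost without lean controls 1, 3, 6 or 7 or LA rats 5 or 8 (adjusted p from 0.0508 to 0.0705), without LA rats 7 and 8 together (0.58, adjusted p = 0.097) and in a fit of these 2 groups alone (0.105).

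Among the other large falls, Padi2 (feature 17803757), a peptidylarginine deiminase, ran from 6.09 to 8.56 with a median of 7.95 in LA rats and from 8.98 to 9.72 with a median of 9.43 in lean controls. Every LA rat lay below every lean rat, and the LA rats were more spread out (SD 0.91 against 0.29). Padi2 fell 3.31-fold (log2 difference -1.73, interval -2.36 to -1.10, limma, adjusted p = 0.00146), and the difference was -1.99 without LA rats 7 and 8. Obese controls ran from 6.98 to 8.48. Tet1, a dioxygenase that oxidises methylcytosine, ran from 5.87 to 7.83 in LA rats, where rats 7 and 8 were lowest, and from 7.81 to 8.57 in lean controls. It fell by 1.08 (limma, adjusted p = 0.00146), and by 0.76 without LA rats 7 and 8 (adjusted p = 0.00442). Npr3, the clearance receptor for natriuretic peptides, fell by 0.97 (limma, adjusted p = 0.0075), and with LA rats 7 and 8 and lean control 2 left out it was at -0.75 (adjusted p = 0.0809). Sec14l5, of the Sec14 lipid-binding family, fell by 0.97 (limma, adjusted p = 0.00339). Fam131c fell by 0.87 without overlap (limma, adjusted p = 2.43e-05), Zfp385d, a zinc finger gene, by 0.74 (limma, adjusted p = 0.0019) and Rftn1, a lipid raft protein, by 0.70 (limma, adjusted p = 6.42e-05). Myod1, a master regulator of the muscle lineage, fell by 0.84 (limma, adjusted p = 0.0202), and without LA rats 7 and 8 it was at -0.70 and not called (adjusted p = 0.0878).

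The calls of 3 further genes among the 15 largest falls were fragile. Nrep, a neuronal regeneration-related protein, had a difference of -1.06 (limma, adjusted p = 0.0302) and lost its call without lean controls 1, 2, 6 or 8 or LA rats 2, 6 or 8 (adjusted p from 0.0504 to 0.0695), without LA rats 7 and 8 together (0.0782) and with a robust prior (0.0506). C8h3orf18 had a difference of -0.85 (limma, adjusted p = 0.0336) and lost its call without lean controls 1, 2, 3, 5 or 8 or LA rats 2, 7 or 8 (0.052 to 0.0802), without LA rats 7 and 8 together (-0.51, adjusted p = 0.157) and in a fit of these 2 groups alone (0.0649). Vof16 had a difference of -0.73 (limma, adjusted p = 0.0223) and lost its call without lean controls 6 or 8 or LA rats 4, 5 or 6 (0.0507 to 0.058) and in a fit of these 2 groups alone (0.0547). For Vof16 the difference was -0.93 without LA rats 7 and 8 (adjusted p = 0.00219).

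Genes of slow-twitch fibres, which contract slowly and oxidise fuel, lay lower in 6 of the 8 LA rats. Myh7 (feature 17702823), which encodes slow myosin, was at 5.92 in LA rat 4 and 8.25 to 9.18 in rats 1, 2, 3, 5 and 6, but at 10.45 and 11.05 in rats 7 and 8, while lean controls ran from 9.67 to 10.35. So 6 LA rats lay below and 2 above the whole lean range. With all rats the log2 difference was -1.12 and not called (limma, adjusted p = 0.271), and without LA rats 7 and 8 it was -1.74 and called (adjusted p = 0.0366). With lean control 2 also left out it was -1.69 (adjusted p = 0.0563). Tnnt1, slow troponin T, ran from 5.91 to 8.44 in 6 LA rats and was at 9.94 and 10.72 in rats 7 and 8, against 9.18 to 10.09 in lean controls. Its difference was -1.14 with all rats (adjusted p = 0.206) and -1.78 without LA rats 7 and 8 (adjusted p = 0.0109). Atp2a2, the calcium pump SERCA of slow fibres and heart, had differences of -0.85 (adjusted p = 0.146) and -1.34 (adjusted p = 0.000679), Tnnc1, troponin C of slow muscle, of -1.12 (adjusted p = 0.216) and -1.80 (adjusted p = 0.00652), and Myh7b, a further slow myosin, of -0.48 (adjusted p = 0.111) and -0.75 (adjusted p = 0.000229). Myl3, the light chain of slow and ventricular muscle, was at -0.47 (adjusted p = 0.116) and -0.61 (adjusted p = 0.0366). Myh7 and Tnnc1 were picked after their values were seen.

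Of 12 tested slow-twitch genes 9 were lower, none was called with all rats, and the median was -0.48. Without LA rats 7 and 8, 6 were called lower and the median was -0.68. In that fit 102 of all 10918 tested genes were called lower. With lean control 2 also left out 4 were called, against 91 of all tested genes called lower. With only 1 of LA rats 7 and 8 left out, 1 member was called without LA rat 7 and 2 without LA rat 8. The mean of the 12 genes was 8.76 and 9.33 in LA rats 7 and 8, 6.86 to 7.84 in the other LA rats, 8.07 to 8.81 in lean controls and 6.71 to 7.62 in obese controls. In the same 2 rats tendon and fibroblast markers were high, as given above, and the part of that tissue in these values was not tested. In whole muscle, fewer fibres of a type and less RNA per fibre cannot be told apart. The 8 tested fast-twitch genes had a median of 0.01 and none was called with or without LA rats 7 and 8.

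**Figure D4:**
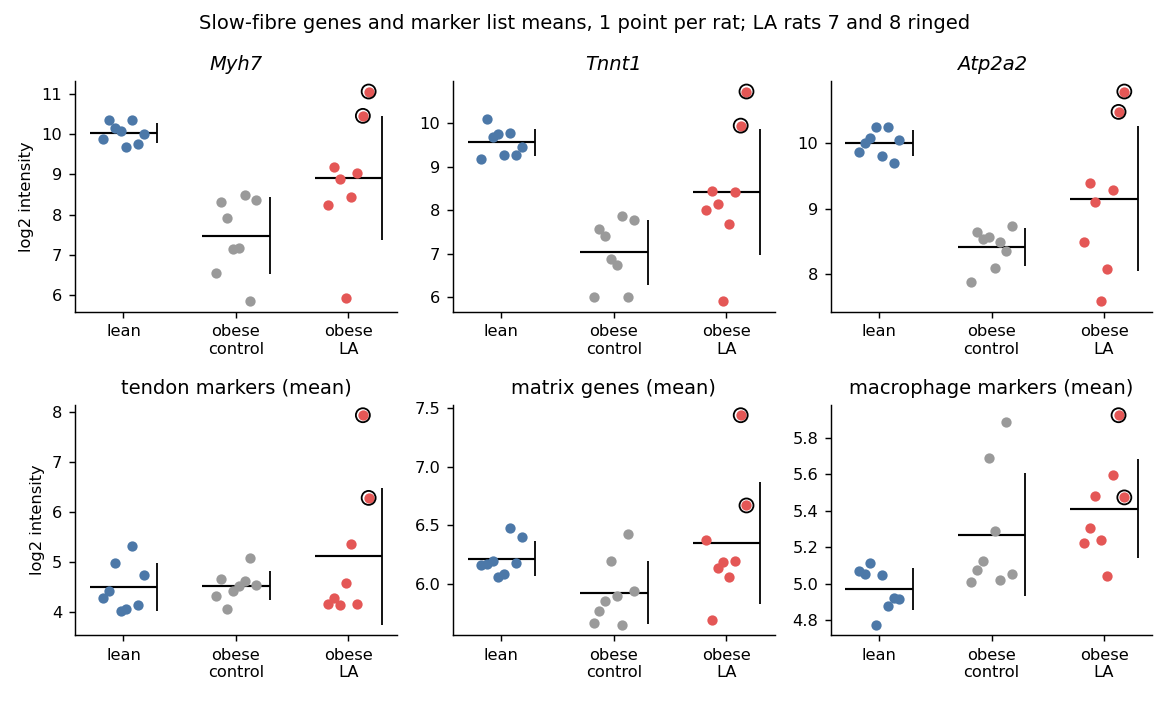
Each point is 1 rat; the upper row shows 3 slow-fibre genes and the lower row the mean of 8 tendon markers, 20 matrix genes and 13 macrophage markers, all in log2 intensity, with group means as lines and SD bars (n = 8 rats per group). LA rats 7 and 8 are ringed: they lie above the lean controls for Myh7 (10.45 and 11.05) and for tendon markers (7.93 and 6.28), while the other LA rats lie below lean controls for Myh7.

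Macrophage markers were higher. All 13 tested markers had positive differences, with a median of 0.50 (0.39 without LA rats 7 and 8). The mean over the list was 5.04 to 5.92 in LA rats, 4.77 to 5.11 in lean controls and 5.01 to 5.89 in obese controls. Obese controls 4 and 7 were the highest of their group, at 5.69 and 5.89, and the others lay at 5.01 to 5.29. The median rat was at 5.39 in the LA group and at 5.10 among obese controls. Lyz2, the lysozyme of macrophages, ran from 7.38 to 8.72 in LA and from 6.83 to 7.36 in lean rats, without overlap, and rose by 1.00 (limma, adjusted p = 0.0231). Its call was lost without LA rat 7 (adjusted p = 0.0501) and held without LA rats 7 and 8 together (0.97, adjusted p = 0.0493), but not with lean control 2 also left out (adjusted p = 0.0537). Csf1r, the receptor for macrophage growth factor, had a difference of 0.61 (limma, adjusted p = 0.02) and was not called without LA rats 7 and 8 (0.48, adjusted p = 0.078). C1qb, a chain of complement C1q, had a difference of 0.79 (limma, adjusted p = 0.0376). The C1qb call was lost without lean controls 2, 4, 6, 7 or 8 or LA rats 6, 7 or 8 (adjusted p from 0.062 to 0.0864), without LA rats 7 and 8 together (0.47, adjusted p = 0.164), with centred arrays (0.0508), with a robust prior (0.051) and in a fit of these 2 groups alone (0.106). In all 3 markers were called, against 1 without LA rat 7 and 5 without LA rat 5. Over all tested genes 48.5% were higher and 0.687% were called higher. More macrophages and more RNA per macrophage cannot be told apart in these samples. No marker of fibroblasts (9 tested), tendon (8), smooth muscle and pericytes (4), nerve (5), red cells (3), lymphocytes and mast cells (4) or hepatocytes (5) was called with all rats. Their medians were 0.17, 0.66, 0.03, 0.10, 0.49, 0.18 and 0.11. Without LA rats 7 and 8 those of fibroblasts and tendon were -0.04 and 0.02, and 1 fibroblast marker, Cd34, was called without lean control 2 (adjusted p = 0.0455).

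Receptors and junction genes of the vessel lining were lower in part. Tie1, an endothelial receptor kinase, ran from 5.14 to 5.87 in LA and from 5.74 to 6.64 in lean rats and fell by 0.56 (limma, adjusted p = 0.0225). It was the 1 called of 8 tested endothelial markers, whose median was -0.14, while 0.934% of all tested genes were called lower. Without LA rats 7 and 8 the median was -0.18 and 2 were called lower. The Tie1 call was lost without lean control 6 or LA rats 4 or 5 (adjusted p from 0.0542 to 0.0604). Cdh5, the cadherin of endothelial junctions, was at -0.47 (adjusted p = 0.0549), and it was called without lean control 2 or LA rats 3 or 7 (adjusted p from 0.0285 to 0.0484) and without LA rats 7 and 8 together (0.0438). Aplnr, the apelin receptor, was among the 15 largest falls, with LA rats at 5.71 to 6.46 and lean controls at 6.18 to 7.45 (difference -0.92, interval -1.25 to -0.59, limma, adjusted p = 0.00145). The mean of the 8 endothelial markers overlapped, at 6.25 to 6.79 in LA rats and 6.59 to 6.92 in lean controls. Cd300lg, Gpihbp1 and Rbp7, described above, rose in the same samples.

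**Figure D5:**
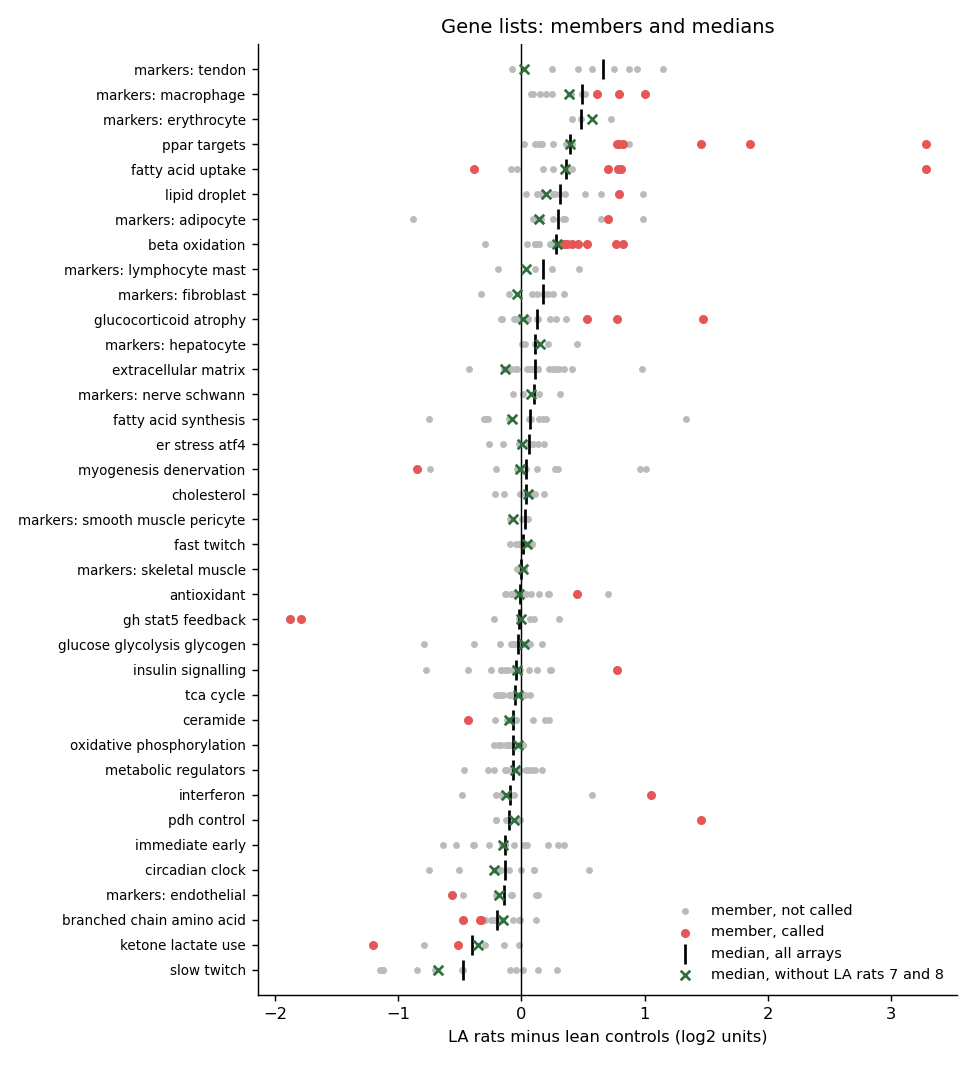
Each row is a gene list and each point 1 tested member, placed by its log2 difference of LA rats minus lean controls; red points are called, black bars are list medians with all rats and green crosses the medians without LA rats 7 and 8. The medians of the tendon list (0.66 with, 0.02 without) and the slow-twitch list (-0.48 and -0.68) move with these 2 rats, while those of the PPAR target (both 0.40) and beta-oxidation lists (0.28 and 0.29) stay in place.

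Several lists held no called gene. The 28 tested genes of oxidative phosphorylation had a median of -0.07 with 26 lower, the 16 of the tricarboxylic acid cycle a median of -0.05, and the 12 of glucose uptake, glycolysis and glycogen a median of -0.03, where Hk2, the hexokinase of muscle, was at -0.38 (adjusted p = 0.203). Without LA rats 7 and 8 the oxidative phosphorylation median was -0.03, and that of the glucose list was 0.02 with 1 gene called lower. The 20 matrix genes had a median of 0.11 with all rats and -0.13 without LA rats 7 and 8, and Lox, a collagen cross-linking oxidase, was at 7.31 in LA rat 7 and 3.74 to 4.86 in the others. In the fatty acid synthesis list of 12 genes the median was 0.07 with all rats and -0.07 without LA rats 7 and 8. Its desaturases Scd and Scd2 differed in opposite directions, at 1.34 (adjusted p = 0.144) and -0.75 (adjusted p = 0.0782). No cholesterol, metabolic regulator, ER stress, circadian clock or immediate early gene was called with all rats, and Per3, a clock gene, was at -0.51 (adjusted p = 0.0752) and was called without lean control 4 or LA rat 3 (adjusted p from 0.0185 to 0.0279). In the ceramide list 1 of 10 was called, against 0.934% of all tested genes called lower. It was Ugcg, the glucosylceramide synthase, which fell by 0.44 (limma, adjusted p = 0.0245). The Ugcg call was lost without lean control 8 or LA rat 2 (adjusted p from 0.051 to 0.0606) and without LA rats 7 and 8 (0.0586).

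Against obese controls, which share the genotype, the LA rats differed in none of the genes kept by the filter on dim genes. Cyp1a1, a dim gene left out there, was called with no filter (log2 difference 0.66, limma, adjusted p = 0.000326) and is described at the end. Limma called 0 of 10918 (0%), the smallest adjusted p was 0.252, and 682 genes had an unadjusted p below 0.05. Obese controls 4 and 7 were unlike the rest of their group. Genes of myogenesis and denervation averaged 7.95 and 8.16 there, while the remaining 6 rats lay between 6.03 and 6.14. Genes of oxidative phosphorylation averaged 9.56 and 9.35, below the range of 9.82 to 10.08 in those 6. Obese control 5 had a mean of 9.44 over hepatocyte markers, and no other rat of that group exceeded 4.61. The fit was therefore also run without them, a choice made after seeing the data, and 0 genes were called without obese controls 4 and 7 (610 with an unadjusted p below 0.05) or without 4, 5 and 7 (683).

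The intervals of the difference between LA rats and obese controls show what the data allow for the main genes. For Angptl4 the difference of LA rats from obese controls was 0.57 (interval -0.15 to 1.30), for Ucp3 0.22 (-0.47 to 0.90), for Pdk4 0.11 (-0.20 to 0.43) and for Cpt1a -0.005 (-0.32 to 0.31). For Cish it was -0.01 (-0.83 to 0.82), for Socs2 0.16 (-0.42 to 0.75) and for Bdh1 0.11 (-0.30 to 0.53). Obese control 5 was the highest of its group for Cpt1a (6.82) and Bdh1 (5.23). Without obese controls 4, 5 and 7 the difference was 0.19 for Cpt1a (-0.13 to 0.50) and 0.28 for Bdh1 (-0.16 to 0.72). With all rats, Fkbp5, Aqp7 and Fabp4 had intervals above 0, at 0.56 (0.06 to 1.06), 0.71 (0.15 to 1.27) and 0.30 (0.04 to 0.56), with adjusted p of 0.754, 0.673 and 0.743. Aqp7 was at 6.88 and 6.15 in obese controls 4 and 7 and at 7.87 to 8.40 in the others. Without these 2 rats the differences of Fkbp5, Aqp7 and Fabp4 were 0.34 (-0.17 to 0.84), 0.31 (-0.17 to 0.80) and 0.19 (-0.08 to 0.46), intervals that all include 0. Other intervals stayed above 0 without them, such as those of Rbp7 at 0.62 (0.21 to 1.02) and C1qb at 0.74 (0.30 to 1.17). Neither gene was called there (limma, adjusted p = 0.618 and 0.459). Myh7 was 1.42 above obese controls (0.45 to 2.39, adjusted p = 0.57) with LA rats 7 and 8 included, and 0.48 above (-0.42 to 1.38) without them and obese controls 4 and 7. A p that misses the threshold does not show that the diets, or both ways of feeding, act alike.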

How the data were processed

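RNA from 32 rat muscles was measured on Affymetrix arrays, from 100 ng of total RNA per rat, per the labels' protocols. The authors deposited log2 values computed with RMA, per the submitters' processing notes, and its version is not given in the sources used here. RMA corrects background and equalises the arrays' distributions, and thereby hides any change common to the bulk of genes. The table held 36685 features, 14824 of them with 1 symbol in the platform annotation, 829 with several and 21032 unnamed here. The feature with the highest mean over 32 arrays stood for each of 14557 genes, and the dimmest 25% were left out, which left 10918. Medians per array ran from 3.83 to 3.99, and the 32 arrays correlated with each other at 0.966 to 0.992 with 0 identical pairs.

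A mean for each of 4 groups was fitted with limma 3.58.1 in R 4.3.3 (28 residual degrees of freedom). P values are two-sided and Benjamini-Hochberg adjusted over all tested genes. The fit was tested on simulated data. Named are the 15 called genes with the largest rise and fall, up to 4 members of each list described, and some picked after their values were seen (Cd36, Vldlr, Acadl, Eci1, Hadhb, Acot2, Acad11, Ech1, Hsdl2, Myh7, Tnnc1, Nrp1, Bcl6b, Plpp3, Gramd1b and Cyp1a1, and list members given with a difference alone). Placeholder and small RNA or receptor family symbols (Mir, Snor, Vom, Olr, LOC, RGD, MGC, AABR, or U with digits) were passed over. The members and lists were chosen with earlier results of these data known. Alternatives were other filters on dim genes, every feature, a second quantile normalisation, centred arrays, a robust prior with trend, array weights, a fit of the compared groups alone, a block for the replicate number, a looser threshold of 0.1, and arrays left out, of which leaving out obese controls 4 and 7, alone, with obese control 5 or with LA rats 7 and 8, was chosen after seeing the data. Same-numbered rats did not deviate together (correlations -0.23 to 0.04), so the numbers were not used as pairs. Promoter windows from RefSeq (GRCr8) matched 58 of 84 named genes.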

Additional observations from a re-analysis of the deposited data

Results flagged for a closer look

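In groups of 8 rats, single rats lay far from the others for 15 of 168 combinations of named gene and group by Dixon's criterion, and chance flags about 1 group in 20. LA rat 5 was the far one for 8 genes of fatty acid handling, iron export and growth hormone feedback. It was low for Aqp7 at 7.31 (others 8.31 to 8.87), Plin5 at 6.90 (others 7.90 to 8.30), Acot2 at 7.55 (others 8.19 to 8.47), Hsdl2 at 9.91 (others 10.27 to 10.40), Hadha at 10.46 (others 10.78 to 10.98), Acadl at 10.41 (others 10.66 to 10.79) and Slc40a1 at 5.82 (others 6.36 to 6.69), and it was high for Cish at 7.43 (others 4.75 to 5.57). LA rat 7 was far from the others for 4 genes, high for Foxo1 at 9.45 (others 7.19 to 8.18), Lox at 7.31 (others 3.74 to 4.86) and Tnmd at 7.40 (others 3.06 to 4.87), and low for Irs1 at 6.02 (others 7.20 to 8.04). LA rat 3 was high for Socs2 at 5.86 (others 3.83 to 4.68). Among lean controls, rat 2 was high for Scd at 6.66 (others 4.64 to 4.92) and rat 7 was low for Rftn1 at 6.01 (others 6.29 to 6.54).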

How the results depend on the processing

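The 61 called genes among those named kept their direction under all 27 alternatives, 39 of them kept the call under all, and 17 lost it without at least 1 array. The genes called numbered 320 (125 higher, 195 lower) at an adjusted p below 0.1 and 369 (135 higher, 234 lower) with array weights. With LA rats 7 and 8 and lean control 2 left out, 48 genes were higher. With 1 array left out, 110 to 223 genes were called, 52 to 92 higher and 58 to 139 lower. The fewest, with 110 called and 58 lower, came without lean control 6, and 66 were lower without lean control 8. Against obese controls 1 gene was called with no filter on dim genes. The cause of these moves was not tested, apart from the looser threshold. With the replicate number as a block 219 genes were called, 87 higher and 132 lower, although rats of the same number did not deviate together and the numbers give no pairing. RMA compresses differences of dim features, the table gives no signal over background for a feature, and depth cannot be judged from it. Gene positions are not given because the array's build is not named in the sources used here.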

Other observations

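Cyp1a1, the oxidase that ligands of the aryl hydrocarbon receptor induce, lay among the dim genes left out of the main test, and it was chosen after its values were seen. It was at 3.39 to 4.23 with a median of 3.72 in LA rats, 2.87 to 3.38 in lean controls, 3.00 to 3.21 in obese controls and 2.98 to 3.36 in rats on flaxseed oil, so that the LA rats lay above all others. With no filter on dim genes its log2 difference was 0.67 from lean controls (limma, adjusted p = 3.07e-05) and 0.66 from obese controls (limma, adjusted p = 0.000326), where it was the only called gene. RMA compresses differences at such low levels.

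Further genes of vessel cells were picked after their values were seen. Nrp1, a co-receptor for vascular endothelial growth factor, was at 7.13 to 7.80 in LA rats and 7.86 to 8.22 in lean controls, without overlap, and fell by 0.56 (limma, adjusted p = 0.00425). Bcl6b, a transcriptional repressor, fell by 0.67 (limma, adjusted p = 0.00484), and Plpp3, a lipid phosphatase, by 0.56 (limma, adjusted p = 0.00529). All 3 were also called without LA rats 7 and 8 (-0.53, -0.72 and -0.63).

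With all rats Gramd1b, a sterol transfer protein, had the smallest adjusted p against obese controls among the genes kept by the filter. It ran from 5.61 to 6.86 in LA rats, 6.63 to 7.43 in lean controls and 6.42 to 7.71 in obese controls. Its difference was -0.75 from obese controls (interval -1.10 to -0.40, limma, adjusted p = 0.252) and -0.65 from lean controls (limma, adjusted p = 0.0439). From obese controls it was -0.53 without obese controls 4 and 7 (-0.86 to -0.20, limma, adjusted p = 0.552). It was -0.62 without obese controls 4, 5 and 7, and -0.41 without obese controls 4 and 7 and LA rats 7 and 8. The call against lean controls was lost without lean controls 1, 2, 3, 5 or 6 or LA rats 4, 5, 6, 7 or 8 (adjusted p from 0.0504 to 0.101), without LA rats 7 and 8 together (0.142), with no filter on dim genes (0.0548) and with a robust prior (0.0512). Car3, a carbonic anhydrase of slow fibres and adipocytes, was at 9.88 to 12.46 in LA rats and 11.62 to 12.28 in lean controls. It was not called with all rats (-0.88, adjusted p = 0.086) and was called without LA rats 7 and 8 (-1.27, adjusted p = 0.00224).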
